A study of Mus musculus with 10 samples.

Results

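The 10 genes described here encode proteases that cut the extracellular matrix and proteins that bind, cross-link or protect it. They are the matrix metalloproteinases Mmp12, Mmp13, Mmp14, Mmp9 and Mmp19, the membrane protease Adam8, the urokinase-type plasminogen activator Plau, the metalloproteinase inhibitor Timp2, the matrix protein Tgfbi and the transglutaminase Tgm2. They were chosen by symbol, with earlier results of these data known, from the 55866 genes of a table of read counts, and all 10 were found. The shares of all genes set beside them below are therefore a background and not a test. The table holds 10 libraries of polyadenylated RNA from mouse cells of a line called iKCs, a name the labels do not spell out. The series concerns miR-342 and an inflammatory phenotype of macrophages associated with liver metastases. All cells had received a lentiviral vector, and living mOrange-positive cells were sorted before RNA was extracted. The vector overexpressed miR-342-3p in 3 libraries and carried a mutated form of that microRNA, as control, in 2. A further 3 libraries carried a sponge against miR-342-3p, and the scramble control of the sponge was in 2. A sponge is a transcript with many sites for a microRNA, which keeps the microRNA from its other targets. All groups are of this 1 line, no group without a vector is analysed here, and libraries of polyadenylated RNA do not measure the mature microRNA, so its level was not checked. The titles speak of biological replicates, but whether they came from separate cultures is not given, so each p-value here reflects only how far libraries of a group differ, which may be technical.

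Matrix metalloproteinases are zinc enzymes made as inactive precursors, which other proteases activate by removing a propeptide, and TIMP proteins block them. Urokinase turns plasminogen into plasmin at the cell surface, and plasmin cuts fibrin and several metalloproteinase precursors. Macrophages are a main source of both kinds of enzyme in inflamed, fibrotic and tumour-bearing liver, where matrix is laid down and removed at the same time.

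A microRNA pairs with target transcripts mainly through its seed, bases 2 to 8 from the 5′ end. The sequences below show that seed in capitals and, also in capitals, matches to it in the 3′ UTRs of 5 genes. These 5 were picked with their results known, so the choice does not link matches to changes in level. All sequences run 5′ to 3′.
miR-342-3p: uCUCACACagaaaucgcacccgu
Tgfbi, 7mer-m8 match: attccctgaGTGTGAGggacccatgg
Mmp13, 6mer match: acttgaaaatTGTGAGgagttcatgt
Mmp12, last of its matches, a 6mer: gtaagagacaTGTGAGcactacttca
Plau, first of its 6mer matches: gctgaggtatTGTGAGggtgcttgtc
Tgm2, 6mer match: ttcccttagcTGTGAGgaaggtcctg

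The mature microRNA is taken from RefSeq (GRCm38.p6, chr12:108658680-108658702, plus strand). The sites come from the longest 3′ UTR of a protein-coding transcript in GENCODE vM21 (GRCm38). The coordinates given are those of the whole stretches shown. The Tgfbi match lies within chr13:56639300-56639325, and the 6mer inside it starts at base 553 of a 601-base UTR. The Tgfbi match pairs with all 7 seed bases and was the only match of that class or longer among the 10 genes. Of 11916 tested genes with a 3′ UTR, 15.2% held an 8mer or 7mer-m8 match. The other 4 sites shown are 6mers, which pair with bases 2 to 7 only. They lie within chr9:7282513-7282538 (Mmp13), chr9:7359657-7359682 (Mmp12), chr14:20842845-20842870 (Plau) and chr2:158117600-158117625 on the minus strand (Tgm2). At least one match of the 6mer or longer was found in 8 of the 10 genes, against 42.1% of the tested genes, which have UTRs of many lengths. The 8 include Mmp19 and Timp2, which did not pass the test below, and Mmp14, which was not tested. Their matches are 6mers and are not shown. Mmp9 and Adam8 held none in UTRs of 944 and 545 bases. A match of letters is a description and does not show that the microRNA binds there.

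Mmp12 (chr9:7344381-7369499) and Mmp13 (chr9:7272514-7283331) lie close together in the annotation of the deposited table (GENCODE vM30, a later build than that of the sequences). In group means both were lowest with overexpression and highest in the mutated control, though the overexpression and sponge libraries of Mmp13 overlapped. Tgm2, on chromosome 2, had the same lowest and highest groups, but no promoter of it was found. Whether Mmp12 and Mmp13 are controlled together was not tested. Their promoters are shown with the letters TGANTCA in capitals, which the AP-1 factors of the Fos and Jun families recognise.
Mmp13: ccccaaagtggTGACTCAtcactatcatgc
Mmp12, second annotated start: gacatcaacagTGAGTCAgatagaggattt

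The windows are chr9:7272468-7272497 and chr9:7347319-7347348, both on the plus strand, from the RefSeq promoters of GRCm38.p6, which run from 250 bases before to 50 bases after a start site. The match began 35 bases before the Mmp13 start and 44 bases before the Mmp12 start. Promoters were found for 6 of the 10 genes, 7 promoters in all. The first Mmp12 start and the promoters of Mmp14, Adam8, Timp2 and Tgfbi did not hold these letters on either strand, and 7.81% of all 32851 promoters did. The letters GGAAGT, the core that the macrophage factor PU.1 recognises, stood in both Mmp12 promoters and in that of Mmp13, and in 23.8% of all promoters.

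Libraries held from 25713110 (overexpression replicate 3) to 59260772 counts (overexpression replicate 1). The counts of sponge replicate 3 and of a scramble library stood run together in the deposited table and were separated before use. Values below are in CPM, counts scaled to the size of the library. The 9 macrophage markers, among them Csf1r and Lyz2, summed to between 5186 and 6314 CPM. Of the Kupffer cell markers, Clec4f and Timd4 had 0 counts in every library and Vsig4 had 17 in all, and the list of 8 summed to between 20.7 and 26.5 CPM with overexpression, sponge or scramble and to 28.4 and 29.1 CPM in the mutated control, with Spic the highest of them. The 9 genes of stellate cells and fibroblasts summed to between 0.187 and 0.272 CPM with overexpression and to between 0.483 and 0.892 CPM elsewhere. Markers of hepatocytes (6 genes, at most 0.0788 CPM), neutrophils (7 genes, 0.233 to 0.490 CPM) and lymphocytes (6 genes, 0.141 to 0.287 CPM) were near 0 in all groups. The 7 endothelial genes summed to between 118 and 151 CPM in the overexpression group and to between 157 and 187 CPM elsewhere, mostly Vwf and Kdr. The macrophage list ran from 5186 to 5688 CPM there and from 5630 to 6314 CPM in the other groups. Whether these shifts bear on the genes below was not tested. In bulk RNA, fewer cells that express a gene and less of its RNA per cell cannot be told apart.

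Levels of different genes were compared as CPM per kilobase of exon. Tgfbi and Timp2 were the most abundant, at a mean of 156 and 116 CPM per kilobase over the 10 libraries, above 98.5% and 97.8% of the tested genes. Plau (42.1 CPM per kilobase) and Adam8 (39.1 CPM per kilobase) followed. Plau was the higher of them only with overexpression (66.7 against 48.3 CPM per kilobase), and Adam8 was higher in the means of the other 3 groups. Tgm2 (9.74 CPM per kilobase) and Mmp13 (8.33 CPM per kilobase) stood above 66.3% and 63.0% of the tested genes, and Mmp19 (3.56 CPM per kilobase) and Mmp12 (2.72 CPM per kilobase) above 46.1% and 41.8%. The neighbours Tgfbi and Timp2, Plau and Adam8, Tgm2 and Mmp13, and Mmp19 and Mmp12 overlapped in their ranges over libraries, while the ranges of all other neighbours were apart. Mmp9, the gelatinase, had only 7 to 34 counts per library and a mean of 0.106 CPM per kilobase. Mmp14, the membrane-bound activator of Mmp2, had 20 counts in all, with 1, 3 and 0 in the overexpression libraries, 2 and 3 in the mutated control, 2, 0 and 3 in the sponge group and 3 and 3 in the scramble group. Mmp14 did not pass the low-count filter, so 9 of the 10 genes were tested, and at these counts a difference in Mmp14 was not detectable.

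**Figure D1:**
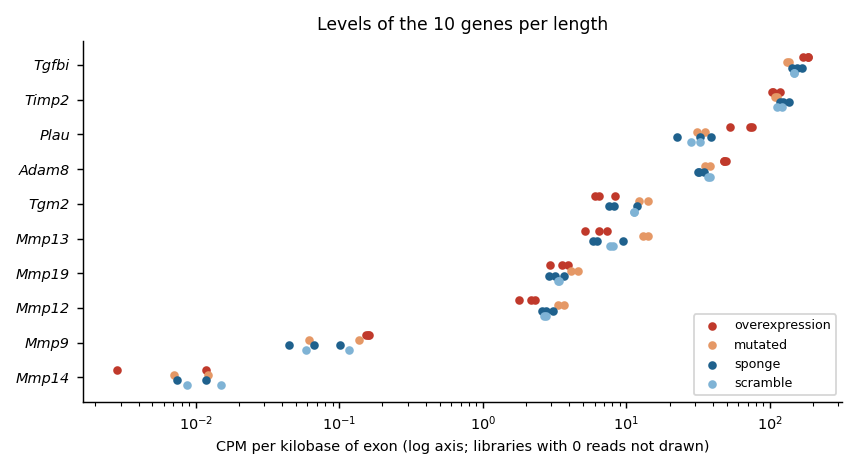
Level of each of the 10 genes in each library, in CPM per kilobase of exon on a log axis, coloured by group. Means run from 156 for Tgfbi down to 0.106 for Mmp9, with Mmp14 lower still.

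Cells overexpressing miR-342-3p held more Plau, Adam8 and Tgfbi RNA and less Mmp12 RNA than each of the 7 other libraries. Mmp9 was also highest there, at only 7 to 34 counts per library. With overexpression, 3.54% of all tested genes lay above and 3.38% below all other libraries. Plau did not pass the test against the mutated control (edgeR adjusted p = 0.0656). The cells with the mutated control stood out in the other direction, with more Mmp12, Mmp13, Mmp19 and Tgm2 RNA than each of the 8 libraries of other vectors. For 6.44% of all tested genes the mutated libraries likewise lay above all others. Between the sponge and its scramble control none of these genes passed the test. The 2 kinds of vector were compared first with their own controls, as the design pairs them.

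Plau (chr14:20886728-20893453, plus strand, vM30 as for the genes below) encodes urokinase. Its level was 170.8, 178.6 and 124.1 CPM in the 3 overexpression libraries and 73.1 and 83.8 CPM in the mutated control. The sponge libraries had 77.4, 53.4 and 92.6 CPM and the scramble libraries 66.6 and 76.9 CPM. Every overexpression library lay above every other library, and the other 3 groups overlapped one another. The log2 fold change of overexpression against the mutated control was 1.01 (SE 0.21), a 2.01-fold higher level, which did not pass the threshold of 0.05 (edgeR quasi-likelihood test, Benjamini-Hochberg adjusted p = 0.0656). This was the largest positive difference among the 9 genes. Overexpression replicate 3 stood well below the other two.

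Adam8 (chr7:139558845-139572475, minus strand), a membrane protease of myeloid cells that sheds surface proteins and cuts matrix, rose. Its level was 220.3, 229.0 and 222.0 CPM with overexpression and 162.4 and 176.4 CPM in the mutated control. It was 146.7, 148.0 and 161.2 CPM with the sponge and 171.1 and 177.0 CPM in the scramble control. The overexpression libraries lay within 8.66 CPM of each other, and the lowest of them was 43.4 CPM above the highest other library. The rise over the mutated control was 1.32-fold (log2 fold change 0.40, SE 0.07, edgeR adjusted p = 0.0296).

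Tgfbi (chr13:56757336-56787375, plus strand), a secreted protein induced by TGF-beta that binds integrins and collagens, rose by a similar factor from a high base. It stood at 693.0, 690.6 and 640.5 CPM with overexpression and at 514.7 and 496.0 CPM in the mutated control. The sponge libraries had 583.2, 536.4 and 632.9 CPM and the scramble libraries 552.2 and 557.3 CPM. Overexpression was above all other libraries, but its lowest and the highest sponge library were only 7.63 CPM apart, and the mutated control was below all others. The log2 fold change over the mutated control was 0.42 (SE 0.08, edgeR adjusted p = 0.0489), just inside the threshold. Tgfbi is the gene whose 3′ UTR holds the 7-base seed match shown above.

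Mmp12, the macrophage elastase, fell. Its level was 16.8, 13.02 and 15.8 CPM with overexpression and 26.8 and 24.3 CPM in the mutated control. The sponge libraries had 18.7, 22.3 and 19.8 CPM and the scramble libraries 20.0 and 19.2 CPM. The groups formed 3 layers, with overexpression lowest, both sponge vectors overlapping in the middle and the mutated control highest. The level fell 1.68-fold relative to the mutated control (-0.75 on the log2 scale, SE 0.11, edgeR adjusted p = 0.0221).

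Mmp13, a collagenase of fibrillar collagen, fell most of the 9 genes in this comparison. It stood at 17.2, 13.9 and 19.6 CPM with overexpression and at 34.8 and 37.6 CPM in the mutated control. The sponge libraries had 16.7, 25.2 and 15.5 CPM and the scramble libraries 20.7 and 21.5 CPM. The mutated control alone stood apart, and the overexpression and sponge libraries overlapped. The log2 fold change was -1.11 (SE 0.19, edgeR adjusted p = 0.0311), a 2.16-fold lower level with overexpression.

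Tgm2 (chr2:157958322-157988356, minus strand), which cross-links matrix proteins through glutamine and lysine, also fell. Its level was 29.8, 27.7 and 38.3 CPM with overexpression and 56.7 and 65.1 CPM in the mutated control. It was 37.7, 54.2 and 35.1 CPM with the sponge and 52.1 and 52.3 CPM with the scramble control. As for Mmp13, the mutated control was above all other libraries, and overexpression and sponge overlapped. The log2 fold change was -0.94 (SE 0.17, edgeR adjusted p = 0.0489). Tgm2 shares 8.03% of its exon bases with Rprd1b, and reads were counted without regard to strand, so reads in the shared bases cannot be assigned.

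Mmp19, Timp2 and Mmp9 did not pass the test. Mmp19 (chr10:128626779-128636693), a metalloproteinase that cuts basement membrane proteins, had 10.4, 12.5 and 13.9 CPM with overexpression, 14.5 and 16.2 CPM in the mutated control, 11.2, 12.9 and 10.2 CPM with the sponge and 11.9 and 11.8 CPM in the scramble control. Its log2 fold change against the mutated control was -0.34 (SE 0.13, edgeR adjusted p = 0.216), and 22.3% of its exon bases are shared with Tmem198b. Timp2 (chr11:118191895-118246566, minus strand), which inhibits metalloproteinases and also helps Mmp14 to activate Mmp2, had 408.6, 399.6 and 461.4 CPM with overexpression and had 438.2 and 421.3 CPM in the mutated control, 479.9, 525.1 and 458.5 CPM with the sponge and 472.9 and 437.2 CPM in the scramble control (-0.02 on the log2 scale, SE 0.08, edgeR adjusted p = 0.893). Mmp9 (chr2:164782700-164797770) had 0.57, 0.56 and 0.54 CPM with overexpression and 0.48 and 0.22 CPM in the mutated control, from 34, 24 and 14 against 23 and 9 counts, and 0.36, 0.16 and 0.23 CPM with the sponge and 0.21 and 0.41 CPM in the scramble control. Its overexpression libraries were the highest of the 10, but the difference of 0.65 on the log2 scale had an SE of 0.40 (edgeR adjusted p = 0.396).

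**Figure D2:**
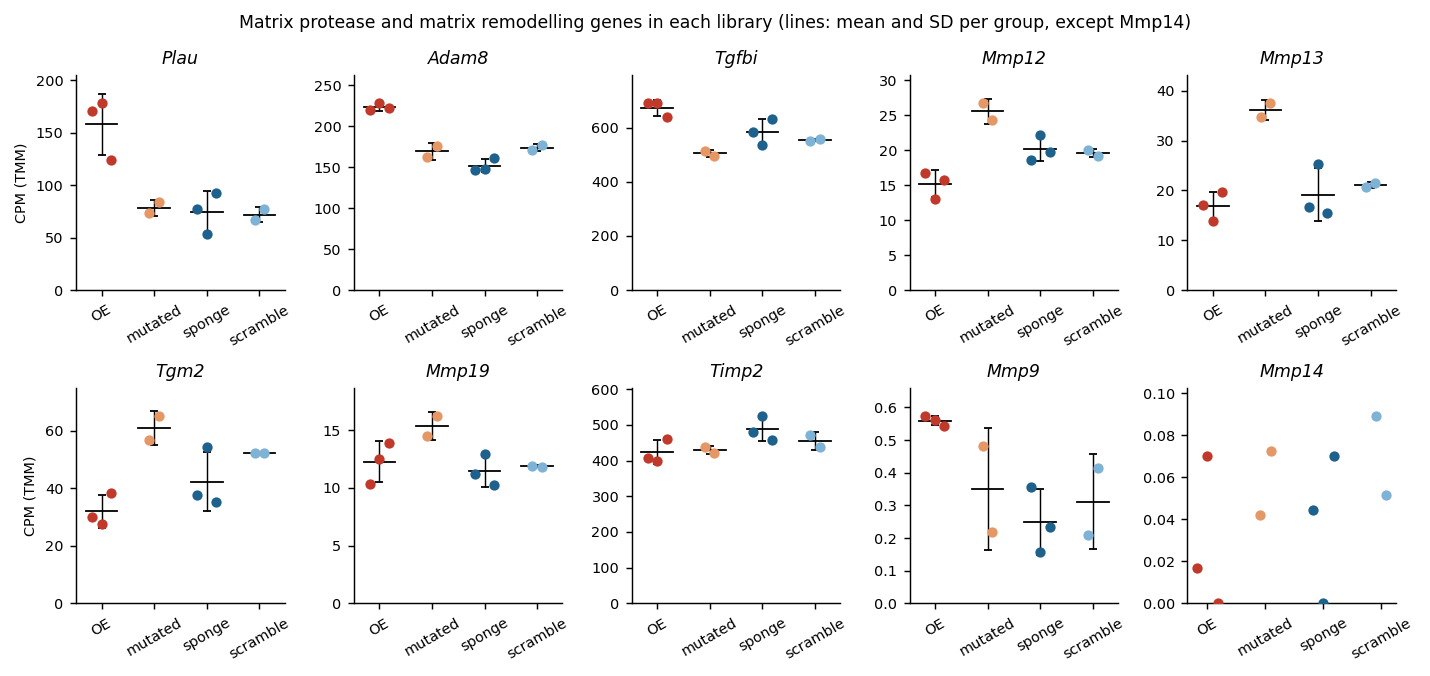
CPM of each of the 10 genes in each library (points), with the mean and SD of each group (lines), on axes that start at 0. OE is overexpression, and Mmp14 is drawn without mean or SD because it had 0 to 3 counts per library. Plau, Adam8 and Tgfbi are highest with overexpression, and Mmp12, Mmp13, Mmp19 and Tgm2 are highest in the mutated control.

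Against the mutated control, 2 of the 9 tested genes thus rose and 3 fell, where 0.247% of all 15767 tested genes rose and 0.292% fell, 0.539% in all (85 genes). The median log2 fold change of the 9 genes was -0.02, with 4 of 9 above 0, and that of all tested genes was -0.01. Their values ran from -1.11 to 1.01. Groups did not overlap for 8 of the 9 genes and for 38.2% of all tested genes, and 7 of the 9 and 18.2% of all had an unadjusted p under 0.05. The calls depended on the fit and on single libraries. With a replicate block none of the 9 passed, of 0 genes in all, and with only the groups compared Mmp13 and Tgm2 did, of 34. Without overexpression replicate 2 none of the 9 passed, of 6 genes in all. Without sponge replicate 1 only Mmp12 did, of 31, and without overexpression replicate 1 only Adam8 and Mmp12 did, of 58. Leaving out a mutated or scramble library leaves 1 in that group, so only effect sizes are given for it. Without mutated replicate 1 or 2, Mmp13 was at -1.16 and -1.04 and Mmp12 at -0.67 and -0.81. Without overexpression replicate 3, sponge replicate 2 or sponge replicate 3, 6 passed, Plau included, of 279, 143 and 252 genes in all. DESeq2 called the same 6, of 500 genes, so the calls among the 9 moved with those over all genes. The directions of these 6 genes against the mutated control did not change in any alternative tried.

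No gene passed in the sponge group against the scramble control, among the 9 or among all tested genes (0%). At an unadjusted p under 0.05 there was 1 of the 9, against 2.33% of all genes, and DESeq2 called none of the 9. That gene was Adam8, lower with the sponge by 0.20 on the log2 scale (log2 fold change -0.20, SE 0.06, edgeR unadjusted p = 0.0113, adjusted p = 1). It was also the only one of the 9 whose sponge and scramble libraries did not overlap, which was so for 15.2% of all genes. The other log2 fold changes were -0.14 for Mmp13, -0.30 for Tgm2, 0.05 for Plau, 0.07 for Tgfbi, 0.10 for Timp2, 0.05 for Mmp12, -0.05 for Mmp19 and -0.42 for Mmp9. The effects of the overexpression and sponge vectors, each against its own control, differed by 0.60 on the log2 scale for Adam8 (SE 0.09, edgeR adjusted p = 0.0978), the smallest adjusted p of the 9. None of the 9 passed in this test, nor did any other gene (0%). At an unadjusted p under 0.05 there were 6 of the 9 against 8.06% of all genes. DESeq2 called 2 of the 9, Adam8 and Mmp12, and 48 genes in all.

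The 2 control vectors can be set beside each other, because they show how far a difference from the mutated control also appears against other vectors. Between them 0.0254% of tested genes (4 genes) passed and none of the 9. With only these 2 groups in the fit, 574 genes passed, Mmp12, Mmp13 and Mmp19 among them. At an unadjusted p under 0.05 there were 3 of the 9 against 6.47% of all genes. DESeq2 called 1 of the 9, Mmp13, and 90 genes in all. Mmp13 was 0.78 higher on the log2 scale in the mutated control than in the scramble control (SE 0.20, edgeR adjusted p = 0.347), Mmp12 0.38 higher (SE 0.12, edgeR adjusted p = 0.531) and Mmp19 0.37 higher (SE 0.14, edgeR adjusted p = 0.665). Plau and Adam8 were closer, at 0.13 and -0.04. Overexpression against the scramble control gave 1.14 for Plau (SE 0.21, edgeR adjusted p = 0.0991), 0.36 for Adam8 (SE 0.07, edgeR adjusted p = 0.0952), 0.28 for Tgfbi, -0.72 for Tgm2, -0.37 for Mmp12 and -0.33 for Mmp13. None of the 9 and 0.0444% of all genes passed there, while 5 of the 9 and 13.4% of all genes had an unadjusted p under 0.05. DESeq2 called 4 of the 9 and 234 genes in all. These comparisons share libraries and are not independent of one another.

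Overexpression was also compared with the mean of the sponge and scramble groups, a comparison added after the data were seen. No gene passed between these 2 groups, but with so few libraries this does not show that they are equal. Plau rose 2.16-fold (log2 fold change 1.11, SE 0.16, edgeR adjusted p = 0.0147) and Adam8 rose 1.38-fold (log2 fold change 0.46, SE 0.05, edgeR adjusted p = 0.0037). They were 2 of the 9, where 1.24% of all tested genes passed and 0.704% rose. The mean includes the sponge group, in which Adam8 was lower than in the scramble control (log2 fold change -0.20). Against the scramble control alone Adam8 was 0.36 higher on the log2 scale without passing (SE 0.07, edgeR adjusted p = 0.0952). The values of Mmp12 (-0.39, SE 0.09, edgeR adjusted p = 0.0636), Tgfbi (0.25, SE 0.06, edgeR adjusted p = 0.0691) and Tgm2 (-0.57, SE 0.15, edgeR adjusted p = 0.0774) did not pass. Mmp13 was at -0.26 (SE 0.16, edgeR adjusted p = 0.376), against -1.11 relative to the mutated control. Adam8 passed under each of the 17 alternatives tried, and Plau under 11 of 17. Plau was lost without overexpression replicate 1 (edgeR adjusted p = 0.0514) or 2 (0.118), without scramble replicate 1 (0.111) or 2 (0.0744), and with a replicate block by the titles (0.0809) or the descriptions (0.0697).

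The mutated control against the mean of those 2 groups gave 0.85 for Mmp13 (SE 0.17, edgeR adjusted p = 0.0662), 0.40 for Mmp19 (SE 0.12, edgeR adjusted p = 0.209), 0.37 for Tgm2 (SE 0.16, edgeR adjusted p = 0.417) and 0.36 for Mmp12 (SE 0.10, edgeR adjusted p = 0.194). None of the 9 passed, with 5 at an unadjusted p under 0.05, and DESeq2 called Mmp13, with no count over all genes to set beside it. Of all tested genes 0.228% passed and 11.1% had an unadjusted p under 0.05. The difference between overexpression and the mutated control in Mmp13 was thus larger than the distance of overexpression from the sponge vectors, whereas for Plau and Adam8 both distances were close (1.01 and 1.11 for Plau, 0.40 and 0.46 for Adam8). Over all libraries, 4 of the 9 genes (Plau, Adam8, Tgfbi and Mmp9) lay above all others with overexpression, as did 3.54% of all tested genes, and 4 (Mmp12, Mmp13, Mmp19 and Tgm2) with the mutated control, as did 6.44%. Mmp12 lay below all others with overexpression, as did 3.38% of tested genes, and Tgfbi with the mutated control, as did 6.34%.

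**Figure D3:**
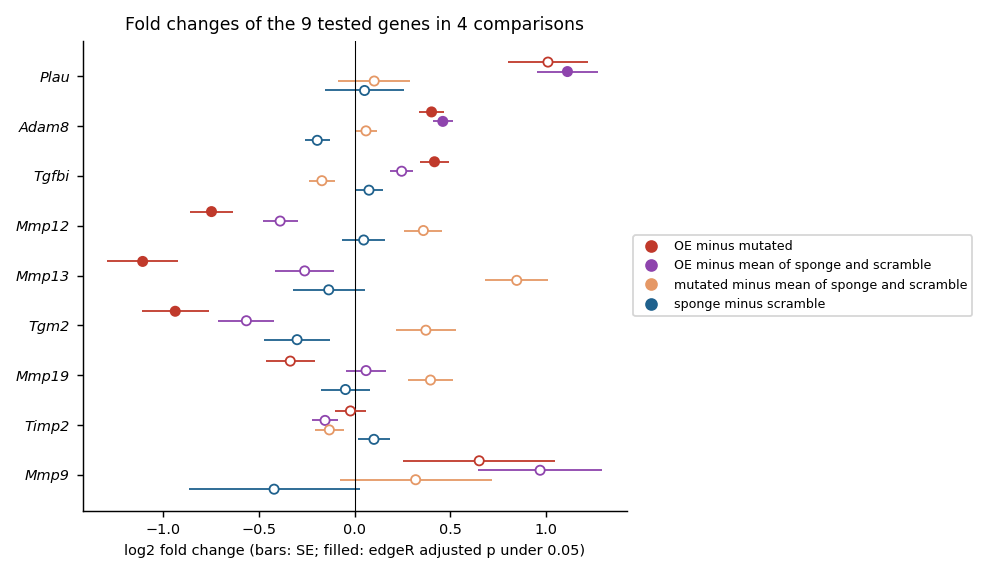
Log2 fold changes (points) with their SE (bars) of the 9 tested genes in 4 comparisons, filled where the edgeR adjusted p was under 0.05. For Plau and Adam8 overexpression lies as far from the sponge vectors as from the mutated control, and for Mmp13 it lies much nearer to the sponge vectors (-0.26) than to the mutated control (-1.11).

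Within groups, libraries differed most in Plau, Mmp13 and Tgm2 among the 8 genes above 10 CPM. Mmp9 differed more in relative terms, at 0.48 and 0.22 CPM within the mutated control, from 23 and 9 counts. Sponge replicate 2 had the lowest Plau of its group, 0.44 below the group mean of log2(CPM + 0.5), and the highest Mmp13 and Tgm2, 0.42 and 0.38 above it. Sponge replicate 3 deviated the other way, by 0.35 for Plau, -0.26 for Mmp13 and -0.24 for Tgm2. Overexpression replicate 3 resembled sponge replicate 2, with Plau at -0.33, Mmp13 at 0.22 and Tgm2 at 0.27. The ratio of Plau to Mmp13 in CPM shows this spread in 1 number, at 9.94, 12.9 and 6.33 in the overexpression libraries, 2.10 and 2.23 in the mutated control, 4.63, 2.12 and 5.96 in the sponge group and 3.22 and 3.58 in the scramble group. Plau had the largest rise and Mmp13 the largest fall of the 9 genes against the mutated control, and Plau alone already set the overexpression libraries apart. That these libraries also lay above all others in the ratio (6.33 against 5.96 in sponge replicate 3 at the nearest) therefore adds no evidence. The sponge group ran from the level of the mutated control to above that of the scramble control. Adam8 lay at most 0.09 from its group mean in any library.

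**Figure D4:**
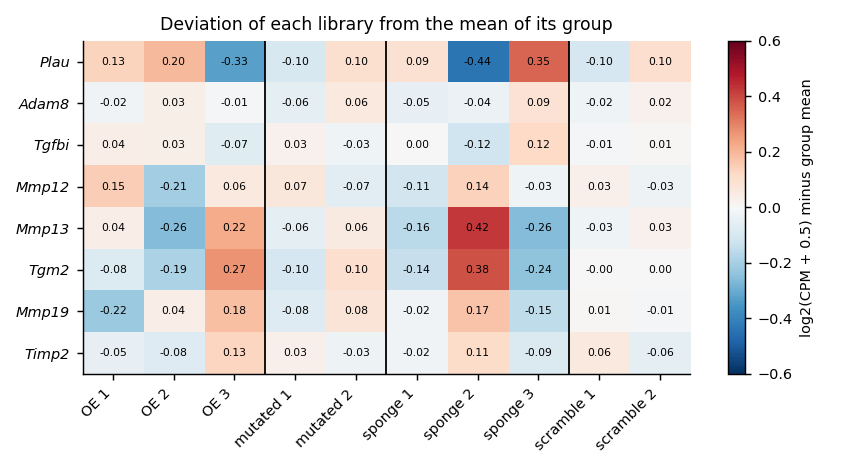
Difference of each library from the mean of its group in log2(CPM + 0.5), for 8 genes (rows) and 10 libraries (columns), red above and blue below the mean. In overexpression replicate 3 and sponge replicate 2, Plau is low (-0.33 and -0.44) while Mmp13 and Tgm2 are high.

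The genes around these 10 in the same pathways were counted in 11 lists with 87 tested genes. Against the mutated control, none of the 87 rose and 2 fell over all tested genes. DESeq2 had 3 that rose and 6 that fell, where it called 500 genes among all 15767. By edgeR, 32 (36.8%) had an unadjusted p under 0.05, against 18.2% of all tested genes. Against the scramble control, the sponge gave none by edgeR or DESeq2 and 6 of 87 (6.90%) at an unadjusted p under 0.05, against 2.33% of all tested genes. The genes that fell were Hpse and Itgal. Hpse encodes heparanase, which cuts the heparan sulfate chains of the matrix. Its level was 51.6, 51.3 and 53.7 CPM with overexpression, 79.7 and 78.6 CPM in the mutated control, 75.8, 82.9 and 73.6 CPM with the sponge and 68.2 and 69.3 CPM in the scramble control. Overexpression was below all other libraries, with a log2 fold change of -0.60 against the mutated control (SE 0.06, edgeR adjusted p = 0.0056) and of -0.48 against the mean of the sponge vectors (SE 0.05, edgeR adjusted p = 0.00365). Itgal, the alpha chain of the leukocyte integrin LFA-1, had 4.22, 4.29 and 5.17 CPM with overexpression, 7.25 and 7.16 CPM in the mutated control, 5.00, 5.53 and 4.73 CPM with the sponge and 5.53 and 5.72 CPM in the scramble control. Its log2 fold change was -0.68 against the mutated control (SE 0.11, edgeR adjusted p = 0.0303), and its mutated libraries stood above the rest.

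The receptor of urokinase, Plaur, was 27.3, 26.4 and 23.4 CPM with overexpression, 21.2 and 19.8 CPM in the mutated control, 20.0, 19.1 and 21.7 CPM with the sponge and 20.7 and 19.9 CPM in the scramble control. All overexpression libraries were above all others. Plaur rose by 0.35 on the log2 scale against the mean of the sponge vectors (SE 0.07, edgeR adjusted p = 0.0405) and was 0.33 higher than in the mutated control without passing (SE 0.09, edgeR adjusted p = 0.116). It was the only one of the 3 tested genes of plasminogen activation that passed by edgeR in any comparison. DESeq2 called 1 of the 3 higher against the mutated control and 1 higher against the scramble control, where it called 500 and 234 genes in all. Against the mutated control only Plaur was above 0, with the tissue-type activator Plat at -0.46 (SE 0.38) and the plasminogen receptor Plgrkt at -0.14 (SE 0.07). Against the mean of the sponge vectors DESeq2 called 1 higher and 1 lower, and the edgeR values other than that of Plaur were -0.29 and -0.23.

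Of 18 other matrix metalloproteinases 8 were tested and none passed against the mutated control. Mmp25, a membrane-anchored enzyme of leukocytes, had a log2 fold change of -0.14 (SE 0.10), while Mmp27 was at -0.56 (SE 0.18, edgeR adjusted p = 0.166) and Mmp10 at -1.37 with an SE of 0.57. Neither did the 3 tested inhibitors pass, among them Cst3, a cysteine protease inhibitor at 526 CPM, with -0.01 (SE 0.11), and Timp1, at 0.187 CPM, with 0.22 (SE 0.40). The 6 tested ADAM and ADAMTS proteases ran from -0.11 to 0.20, with the sheddases Adam10 and Adam17 at -0.11 and -0.03. The 9 cathepsin, legumain and furin genes, which serve lysosomes and precursor processing, ran from -0.04 to 0.24. Ctsb alone had 7695 CPM, or 1272 CPM per kilobase, and a log2 fold change of 0.03 (SE 0.07). None of these 26 genes was called by DESeq2 against the mutated control either, and 4 had an unadjusted p under 0.05, a share near the 18.2% of all tested genes.

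Among genes that build or bind matrix, the 9 cross-linking enzymes had none that passed by edgeR and 1 that rose by DESeq2, with the collagen prolyl hydroxylase P4ha1 at 0.34 (SE 0.09, edgeR adjusted p = 0.127). The 16 integrins and matrix receptors had 1 by edgeR, Itgal, and 3 that fell by DESeq2, with Itga6 at -0.57 (SE 0.13, edgeR adjusted p = 0.0809). The 11 matrix proteins had none by either tool. Of their values 9 of 11 were below 0, while 48.8% of all tested genes were above 0. Tenascin C (Tnc) was at -1.24 (SE 0.36, edgeR adjusted p = 0.137) and osteopontin (Spp1), at 868 CPM, at -0.14 (SE 0.07). At an unadjusted p under 0.05 there were 7 of these 11 genes, against 18.2% of all tested genes. There were also 7 of the 16 integrins and matrix receptors, 2 of the 9 cross-linking enzymes and 3 of the 9 genes of TGF-beta signalling named next. Of 9 genes of TGF-beta signalling, which induces Tgfbi, none passed by edgeR and DESeq2 called 1 higher and 1 lower, and Tgfb1 was at 0.29 (SE 0.08, edgeR adjusted p = 0.112) and its receptor Tgfbr1 at -0.39 (SE 0.11, edgeR adjusted p = 0.14). Of the 7 AP-1 genes none passed by edgeR and 1 fell by DESeq2, and 5 had an unadjusted p under 0.05, against 18.2% of all tested genes, with Fos at -0.56 (SE 0.14, edgeR adjusted p = 0.106), Fosb at -0.89 (SE 0.23, edgeR adjusted p = 0.109) and Jun at 0.21 (SE 0.07, edgeR adjusted p = 0.173).

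**Figure D5:**
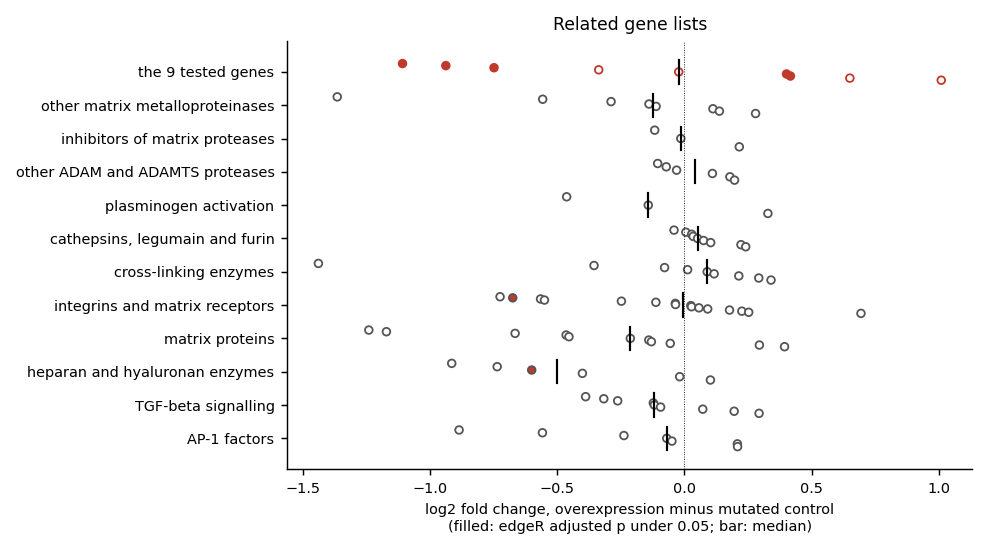
Log2 fold change of overexpression against the mutated control for the 9 tested genes (top, red) and for the tested genes of 11 related lists (1 point per gene, filled where the edgeR adjusted p was under 0.05, bar at the median). Filled points are 5 of the 9 genes and, in the lists, Itgal and Hpse.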

How the data were processed

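The deposited table holds whole-number read counts per gene, which the authors made with featureCounts 2.0.1, the GENCODE vM30 annotation, a minimum overlap of 10 bases and strand setting 0, per the file headers. The other deposited columns (chromosome, start, end, strand and length) came from that annotation. The submitters' processing notes list STAR 2.7.6a, Trimmomatic, Subread, FastQC 0.11.6 and the build GRCm38; vM30 belongs to a later build, so gene positions are as deposited and site positions come from GRCm38 references. The header names 12 libraries, of which 10 are analysed here.

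In each line, the counts of sponge replicate 3 and of 1 scramble library are run together as 1 number. It was split at the likeliest place under a negative binomial distribution (dispersion 0.1), and 51 of 55866 genes whose best split was under 100 times likelier than the next were left out. On 7 intact pairs joined on purpose, at least 99.97% of genes were recovered. The scramble replicate numbers rest on the order of the header.

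Counts were tested with edgeR 4.0.16 in R 4.3.3 (robust quasi-likelihood, TMM factors, filterByExpr) in 1 fit of 10 libraries with 6 residual degrees of freedom. P-values were adjusted by Benjamini-Hochberg over 15767 genes, with a threshold of 0.05. CPM was computed with TMM factors. The functions were tested on simulated data. Alternatives were DESeq2 1.42.0, other scaling factors, no low-count filter, a replicate block, only the groups compared, and leaving out libraries. The 2 comparisons with the mean of the sponge and scramble groups were added after seeing the data. The genes and lists were chosen with earlier results of these data known. From each list the text names genes called in any comparison and, otherwise, up to 3 with the smallest p and up to 3 with the highest CPM per kilobase. Likeness was the root mean square distance between centred log2(CPM + 0.5) profiles. It was taken over 9684 tested genes, other than these 10, whose log2 CPM averaged 2 or more. Their symbols had to be a capital followed by small letters and then any digits or small letters. Symbols of other forms, such as those with a hyphen, and numbered Gm and Rik symbols could therefore not be named.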

Additional observations from a re-analysis of the deposited data

How the results depend on the processing

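Of 1107 values of single genes recomputed under the alternatives, 984 kept direction and call, 51 lost the call, 51 gained it and 21 turned. The causes were not tested. Most of these values were not called in the main fit and stayed uncalled, so the 984 do not measure how stable the calls were. The 5 genes called against the mutated control passed under only 8 (Tgfbi) to 10 (Mmp12) of 18 alternatives. DESeq2 called 500 genes for overexpression against the mutated control, 1 for sponge against scramble, 90 between the controls, 234 for overexpression against scramble and 48 for the difference of effects, and of the 9 genes it called 6, 0, 1, 4 and 2. Without a low-count filter these were 1390, 24, 149, 747 and 331 genes, and 6, 0, 1, 5 and 5 of the 9. Against the mean of the sponge vectors, DESeq2 called 5 of the 9 for overexpression and 1 for the mutated control, and no filter 7 and 4. Counts over all genes were not kept for these comparisons under the alternatives. Their counts of the 9, here and below, therefore have no background and are not read as a result about these genes. With only the groups compared, 34 genes and 2 of the 9 (Mmp13 and Tgm2) passed against the mutated control, and 574 and 3 between the controls. Without both libraries of the joined field, 1 gene passed between the controls and 3 for overexpression against scramble. Leaving out 1 library gave 0 to 279 genes and 0 to 6 of the 9 against the mutated control, 0 to 36 genes between the controls, 1 to 37 genes and 0 to 2 of the 9 for overexpression against scramble, 0 to 7 genes and 0 to 1 of the 9 for the difference of effects, and 1 to 5 (overexpression) and 0 to 1 (mutated control) of the 9 against the mean of the sponge vectors.

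Over 13 pairs with equal replicate numbers in the titles, deviations from group means correlated between -0.41 and 0.16 (median -0.01), and 1 pair was over 0.1. Over 24 pairs with unequal numbers the correlations ran from -0.31 to 0.46 (median 0.01), and 6 were over 0.1. Within each control group, centring makes the libraries deviate by equal amounts in opposite directions, so many of these correlations are not independent. They therefore cannot decide whether libraries with equal numbers were handled together. With the replicate block, 0 genes and 0 of the 9 passed against the mutated control, 1 gene between the controls, 3 genes for overexpression against scramble and 1 of the 9 (Adam8) for overexpression against the mean of the sponge vectors. The block by the numbers in the descriptions gave 0, 0, 1, 5 and 1.

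Values that turned, other than those of Mmp9, ran from -0.05 to 0.10 in the main fit, and the largest after turning was -0.2344 for Plau. Sponge against scramble turned to 0.0152 for Mmp19 and -0.0004 for Plau with the block by description, and to 0.0320 and -0.2344 without the joined field. Leaving out 1 library, it ran from -0.1441 to 0.0267 (Mmp19, turned without sponge replicate 3), -0.1362 to 0.2429 (Plau, without sponge replicate 3 and, at -0.0460, scramble replicate 1), -0.0272 to 0.1060 (Mmp12, without sponge replicate 2) and -0.7611 to 0.2422 (Mmp9, without scramble replicate 2). Overexpression against the mutated control ran from -0.0774 to 0.0259 for Timp2. For Mmp19, overexpression ran from -0.0473 to 0.1495 against scramble and from -0.0242 to 0.1736 against the mean of the sponge vectors, turned without overexpression replicate 3. The mutated control against scramble ran from -0.5946 to 0.7683 for Mmp9, with -0.2156 without the joined field, and from -0.1050 to 0.0192 for Adam8. Against the mean of the sponge vectors it ran from -0.3863 to 0.7466 (Mmp9), -0.0090 to 0.1169 (Adam8) and -0.0074 to 0.1970 (Plau). Where leaving out a library left a control with 1, that library was assumed to vary like the other groups.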

Other observations

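The genes whose centred log2(CPM + 0.5) profile over the 10 libraries lay nearest to that of each called gene, by root mean square distance among 9684 genes, are given as a description; the profiles share these libraries and their depth. The nearest to Plau were Bcl2l1, an inhibitor of cell death, at 0.0839, the cytokine Tnf at 0.120 and the chemokine Ccl12 at 0.172, where Plau itself varied by 0.544 around its mean. The nearest to Mmp13 were the growth factor Bmp2 at 0.128, the lectin Clec4n at 0.148 and the cytokine Osm at 0.160. Tgm2 had Enc1 at 0.0908, the growth factor Vegfa at 0.0989 and Pfn2 at 0.108. For Adam8 they were the scavenger receptor Stab1 at 0.0788, the growth factor Pdgfb at 0.0826 and the protease inhibitor Serpinb6b at 0.0908. Mmp12 had the kinase Pim3 at 0.107, Traf3ip3 at 0.114 and the epoxide hydrolase Ephx1 at 0.117. Tgfbi, which varied little, had Nup37, Tubb4b and Rbm38 at 0.0397 to 0.0412. Among the 9 tested genes themselves, Adam8 and Tgfbi were nearest at 0.165 and Mmp13 and Tgm2 were 0.203 apart, while Plau and Tgm2 were farthest apart at 0.897.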
